A study of Mus musculus with 79 samples.

Results

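The genes described here code for the proteasome: the subunits of its core particle, the subunits and chaperones of its regulatory particle, its activators, and the factors that assemble it. Members were the genes whose symbol is Psma, Psmb, Psmc, Psmd or Psme with a number, the assembly chaperones Psmg1 to Psmg4, and Pomp, each with its brightest row of the array. Genes were matched by name, although the members and the rule were chosen with earlier results of these data known. The choice of the brightest row changed nothing, since each gene had 1 row. Of 48 symbols that match it in the RefSeq gene table, 43 were found among the 31350 rows of the array, each with 1 row. Psma4, Psma5, Psmb3, Psmb9 and Psmc3 were not found under the symbols used here. The members comprised 6 alpha subunits, 6 constitutive beta subunits, 3 immunoproteasome and thymus beta subunits, 5 ATPases and 11 non-ATPase subunits of the regulatory particle, 3 chaperones of that particle, 4 activators and 5 assembly factors of the core.

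Gene expression was measured in the right lung of 79 C57BL/6J mice, littermates aged 5 to 7 weeks, with 1 Affymetrix array per mouse. WT mice carried no transgene, and βENaC mice carried a transgene that overexpresses Scnn1b, the β subunit of the epithelial sodium channel, in airway epithelial cells. Both genotypes and both sexes were exposed to the smoke of 6 unfiltered research cigarettes a day or to room air in the exposure chamber (sham), for 1 day or for 5 days in a row, and the lung was taken 4 hours after the last exposure. There were 20 sham and 20 smoke mice at 1 day and 20 sham and 19 smoke mice at 5 days, in 16 groups of 4 to 6 mice. Values are log2 intensities. The samples are whole homogenised lung, in which fewer cells of a type and less RNA per cell cannot be told apart.

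The labels were checked against Scnn1b itself, which lay between 11.52 and 11.88 in the 39 βENaC mice and between 8.42 and 9.47 in the 40 WT mice. The source names of 13 WT mice call them BENaC, against their titles and genotype entries, and Scnn1b in these mice fell in the WT range. The array least like its own group had a mean correlation with it of 0.981 at each duration. The median log2 intensity of an array was between 4.44 and 4.55, and 36 of the 43 members had a mean of at least 7. Psma8, Psmb11, Psme2, Psmg3 and Psmg4 had means below the lowest array median, and small differences of these dim rows call for caution. Of these, Psma8 and Psmb11 were near the bottom of the intensity range, and the other rows were closer to the array median.

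The proteasome degrades proteins that carry chains of ubiquitin. Its core particle, the 20S, is a barrel of alpha rings around beta rings, and Psmb5, Psmb6 and Psmb7 carry the proteolytic sites of the constitutive form. In cells exposed to interferon gamma and in many leukocytes these are replaced by Psmb8, Psmb9 and Psmb10, which form the immunoproteasome and favour peptides for class I antigen presentation. The regulatory particle, the 19S, recognises and unfolds the substrate through its ATPase ring (Psmc genes) and its lid and base subunits (Psmd genes). Transcription of these genes is known to be driven by NRF1 (Nfe2l1) when proteasome capacity is short, and the oxidant-responsive factor NRF2 (Nfe2l2) binds the related antioxidant response element.

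The promoters of 4 members are shown because the cigarette smoke response of the lung includes NRF2 target genes and the members can be read against its element. Each line is the 250 bases before the RefSeq start of the gene (GRCm38.p6), 5′ to 3′ on the strand of the gene, with any match to TGACNNNGC or its reverse complement GCNNNGTCA, the core letters of the antioxidant response element, in capitals. Psmb5 (chr14:54617996-54618245, minus strand) and Psmb6 (chr11:70525107-70525356, plus strand) hold a match. Psmd11 (chr11:80428365-80428614, plus strand) and Psme3 (chr11:101315963-101316212, plus strand) had the smallest adjusted p at 1 day and at 5 days among the members and hold none.
Psmb5: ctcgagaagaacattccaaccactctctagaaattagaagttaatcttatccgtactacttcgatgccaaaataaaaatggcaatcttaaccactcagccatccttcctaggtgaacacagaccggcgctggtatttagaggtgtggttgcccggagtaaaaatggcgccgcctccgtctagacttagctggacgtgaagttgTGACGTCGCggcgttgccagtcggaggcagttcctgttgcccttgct
Psmb6: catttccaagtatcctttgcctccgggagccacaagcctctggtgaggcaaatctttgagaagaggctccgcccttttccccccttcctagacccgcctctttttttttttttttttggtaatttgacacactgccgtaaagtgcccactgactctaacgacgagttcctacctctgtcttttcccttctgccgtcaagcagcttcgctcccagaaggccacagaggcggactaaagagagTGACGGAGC
Psmd11: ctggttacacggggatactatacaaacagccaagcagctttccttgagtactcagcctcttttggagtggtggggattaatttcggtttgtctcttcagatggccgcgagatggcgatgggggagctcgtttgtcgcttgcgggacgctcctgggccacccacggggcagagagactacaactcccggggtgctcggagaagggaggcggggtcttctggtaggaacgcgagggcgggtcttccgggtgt
Psme3: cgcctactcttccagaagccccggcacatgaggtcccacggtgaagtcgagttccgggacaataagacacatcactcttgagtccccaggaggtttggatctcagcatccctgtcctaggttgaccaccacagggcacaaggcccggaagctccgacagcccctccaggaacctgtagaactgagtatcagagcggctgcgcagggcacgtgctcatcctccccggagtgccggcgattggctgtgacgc
The match ends directly before the start in Psmb6 and begins 47 bases before it in Psmb5. Promoters were listed for 36 of the 43 members, and 5 of these (13.9%) had a match, the others being Psmc6, Psmd12 and Psmd9. Among all 27025 genes with a listed promoter the share was 11.5%, close to that among the members. Of the 6 NRF2 target genes described below, 4 had a listed promoter and 2 of these had a match. A match is a description of letters and not a binding site, and a gene without a match in these 250 bases may hold one elsewhere. A link between a match and the smoke coefficients was not tested.

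Smoke changed few proteasome genes, and those by small amounts. At 1 day, 4 members rose with smoke (Psmd11, Psmd5, Psmd7 and Psme4), 2 fell (Psmg2 and Psmg4), and 37 did not pass an adjusted p of 0.05 in limma over all rows. Among all rows of the array 5.03% were higher and 4.43% were lower in smoke at the same threshold, and among rows with a mean of at least 7, a limit chosen after the values were seen, 11.9% were higher and 7.35% were lower. At 5 days, 3 members rose (Psme3, Psmd11 and Psmd7) and 0 fell, where 3.17% of all rows were higher and 3.37% lower, and 6.91% and 6.48% of the brighter rows. The members' counts were thus close to or below those of rows of like brightness. The split depended on the scaling: quantile and cyclic loess normalization turned it to 2 higher and 3 lower members at 1 day, and median centering kept it mostly higher with 5 higher and 3 lower, with Psmb8 as the added lower call in all 3. At an unadjusted p under 0.05 there were 16 of 43 members at 1 day and 9 at 5 days, where 21.5% and 18.2% of all rows and 36.9% and 31.2% of the brighter rows were. An ordinary linear model also called 6 members at 1 day and 3 at 5 days.

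No member passed the 1.3-fold limit together with the adjusted p, which 1.08% of all rows did at 1 day and 1.16% at 5 days. The 95% intervals of all 43 members lay inside 1.3-fold in both directions at both durations, with the widest bound at 0.29 on the log2 scale in each. At this number of mice a change of 1.3-fold or more was therefore outside the interval of every member. The proteolytic subunits of the constitutive core were among these: Psmb5 differed by 0.08 ± 0.055 (SE) at 1 day and 0.09 ± 0.062 at 5 days, Psmb6 by -0.06 ± 0.042 and -0.01 ± 0.036, and Psmb7 by -0.05 ± 0.031 and -0.01 ± 0.034.

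The levels of these 3 subunits overlapped widely between the exposures. Psmb5, the chymotrypsin-like subunit, had lowest, median and highest values of 7.48, 7.81 and 8.52 in sham and 7.49, 7.93 and 8.15 in smoke mice at 1 day, and of 7.51, 7.85 and 8.18 against 7.47, 7.95 and 8.56 at 5 days. Psmb6, the caspase-like subunit, had 8.49, 8.77 and 9.11 in sham and 8.49, 8.75 and 8.89 in smoke mice at 1 day. Psmb7, the trypsin-like subunit, had 9.46, 9.63 and 9.79 in sham and 9.38, 9.56 and 9.72 in smoke mice at 1 day. In each of them the smoke median lay inside the sham range.

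**Figure D1:**
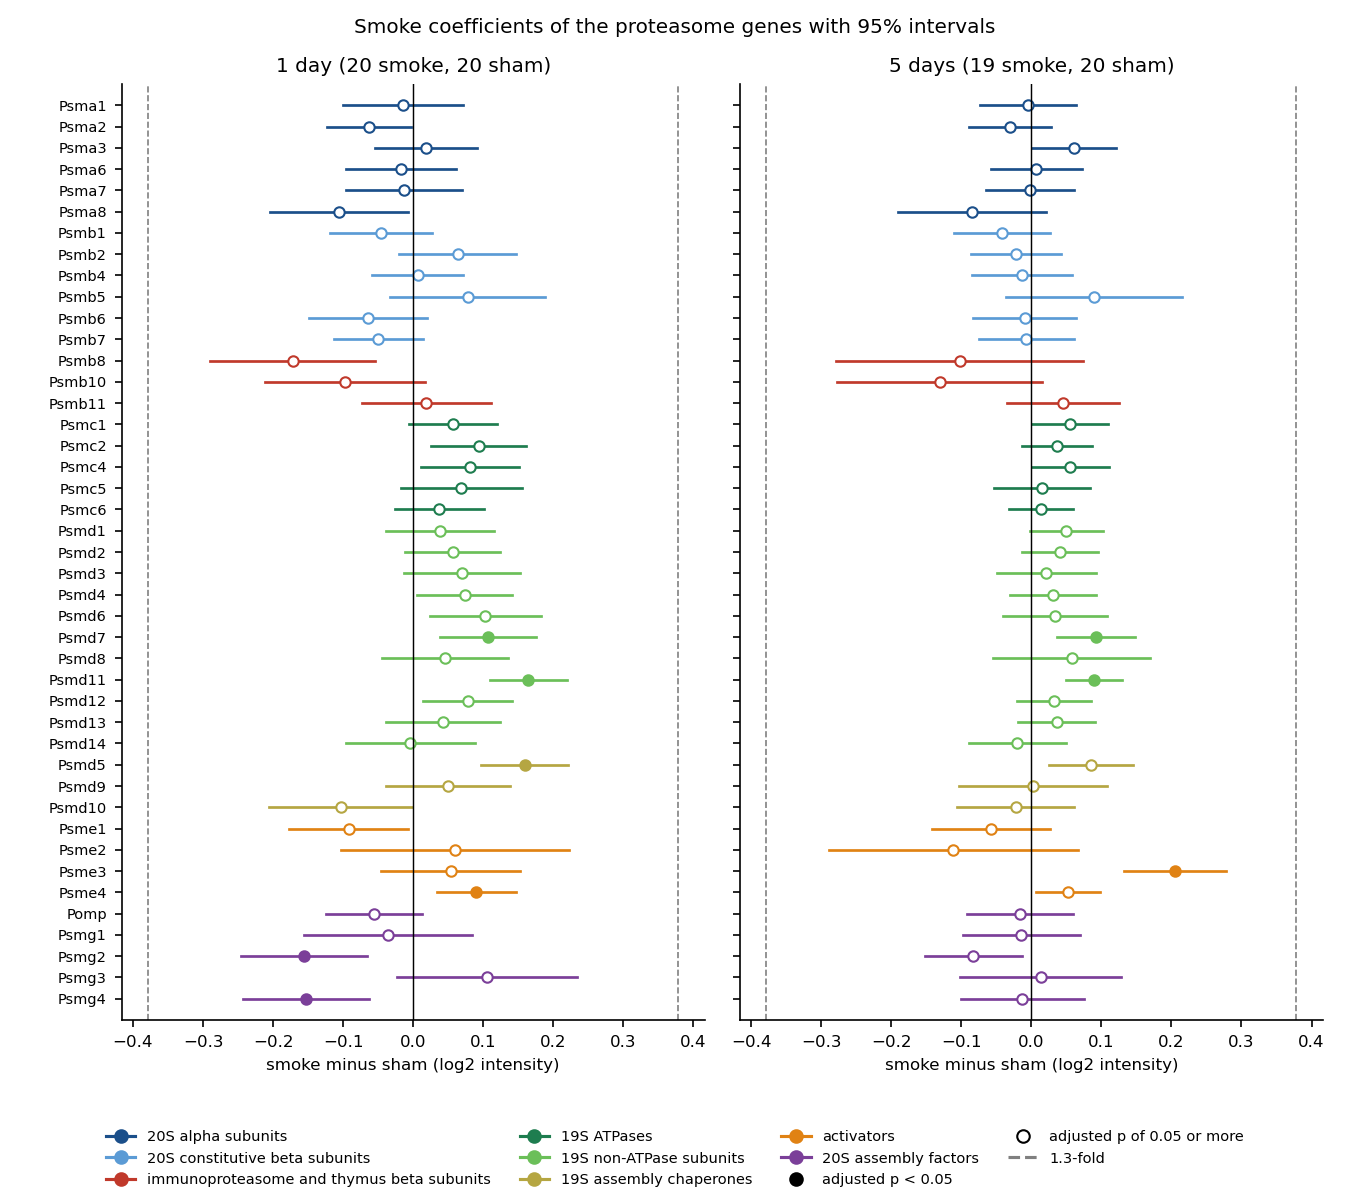
Coefficient of smoke minus sham (log2 intensity, x axis) for each of the 43 proteasome genes (y axis, coloured by class) at 1 day and at 5 days, with 95% intervals. Filled points passed an adjusted p of 0.05, and dashed lines mark 1.3-fold, which no interval reaches. Of the 16 regulatory particle subunits, 15 lie right of 0 in each panel.

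Coefficients of the regulatory particle were mostly above 0. Those of the core were more often below 0 than above it, with medians close to 0. Of the 16 regulatory particle subunits measured, 15 had a positive smoke coefficient at 1 day and 15 at 5 days, with Psmd14, the deubiquitinase of the lid, as the exception at both, and the median coefficient was 0.07 at 1 day and 0.04 at 5 days. Of the 15 core subunits, 5 were positive at 1 day and 4 at 5 days, with medians of -0.02 and -0.01. Over all 31350 rows, 17462 were positive at 1 day and 15330 at 5 days, with medians of 0.01 and -0.0018. Signs among rows of like brightness are not given here, and at 1 day 11.9% of those rows passed as higher and 7.35% as lower. The sign counts are therefore not read as particular to the regulatory particle. Only Psmd11 and Psmd7 of the regulatory particle and none of the core passed the test at either duration, and no test was made of a class as a whole. Across the original fit and its 10 alternatives the regulatory particle had 15 to 16 positive subunits at 1 day and 15 in each at 5 days, and the core had 4 to 6 and 3 to 7. The subunits were measured on the same arrays and their values rose and fell together from mouse to mouse, so they are not independent.

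Psmd11, a lid subunit, was the member with the smallest adjusted p at 1 day. In sham mice at 1 day its lowest, median and highest values were 9.29, 9.45 and 9.61, and in smoke mice they were 9.48, 9.61 and 9.78. All 20 smoke mice were above the sham mean of their own genotype and sex, although the ranges overlapped. The coefficient was 0.16 ± 0.027 (SE), a rise of 12.0% (adjusted p = 5.65e-05). At 5 days the sham values were 9.39, 9.45 and 9.51 and the smoke values 9.46, 9.55 and 9.63. Here 18 of 19 smoke mice were above their sham mean, and the coefficient was 0.09 ± 0.020 (adjusted p = 0.0026). Smoke minus sham was positive in each of the 8 combinations of genotype, sex and duration, between 0.03 and 0.27.

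Psmd5, a chaperone that holds ATPases of the base during assembly, rose at 1 day. Its sham values at 1 day were 8.35, 8.58 and 8.77 and its smoke values 8.54, 8.76 and 8.93, and 19 of 20 smoke mice lay above their sham mean. The coefficient was 0.16 ± 0.031 (adjusted p = 4.5e-04). At 5 days it was 0.08 ± 0.030 (adjusted p = 0.081). The difference between the durations was -0.08 ± 0.041 and did not pass the test (adjusted p = 0.46).

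Psmd7, a lid subunit that pairs with Psmd14, rose by 0.11 ± 0.034 at 1 day (adjusted p = 0.037) and by 0.09 ± 0.027 at 5 days (adjusted p = 0.034). The lowest, median and highest values were 8.91, 9.14 and 9.40 in sham and 9.09, 9.24 and 9.40 in smoke mice at 1 day. They were 8.98, 9.10 and 9.23 against 9.07, 9.21 and 9.35 at 5 days. The smoke group was narrower and its lower end higher at 1 day, with the same highest value. The call was lost without any 1 of 12 mice at 1 day (adjusted p up to 0.063) and 9 mice at 5 days (up to 0.059), and under quantile and cyclic loess normalization at 1 day.

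Among the ATPases, which unfold the substrate, none passed the test. Psmc2 differed by 0.09 ± 0.034 at 1 day (adjusted p = 0.072) and by 0.04 ± 0.024 at 5 days. Its lowest, median and highest values at 1 day were 8.46, 8.69 and 8.90 in sham and 8.63, 8.80 and 8.93 in smoke mice. Psmc4 differed by 0.08 ± 0.035 and 0.06 ± 0.027, and its values at 1 day were 8.72, 9.002 and 9.19 in sham and 8.84, 9.09 and 9.19 in smoke mice. The 5 ATPases measured were all positive at both durations, with medians of 0.07 and 0.04. Psmc2 passed the test at 1 day under 4 of the alternatives (median centering, array weights, 1 fit over all mice, and leaving out the least typical array of each duration).

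Of the activators, which cap the core in place of the regulatory particle, Psme3 (PA28γ, a nuclear activator) had the largest coefficient of any member at 5 days. The lowest, median and highest values were 8.35, 8.51 and 8.65 in sham mice and 8.38, 8.68 and 8.88 in smoke mice. Of 19 smoke mice, 18 were above their sham mean, and 13 were above the whole sham range, with the other 6 inside it. The coefficient was 0.21 ± 0.036, a rise of 15.3% (adjusted p = 1.5e-04). At 1 day it was 0.05 ± 0.049 (adjusted p = 0.59), with sham values of 8.36, 8.54 and 8.79 and smoke values of 8.38, 8.53 and 9.14. The exposure by duration term was 0.15 ± 0.060 and did not pass the test (adjusted p = 0.24), so a larger change at 5 days was not shown.

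Psme4 (PA200, another activator) rose by 0.09 ± 0.028 at 1 day (adjusted p = 0.032), and 18 of 20 smoke mice were above their sham mean. Lowest, median and highest values were 8.85, 8.98 and 9.32 in sham and 8.93, 9.07 and 9.18 in smoke mice, which overlapped. The call was lost (adjusted p up to 0.054) without WT smoke male replicate 4, WT sham male replicate 3, βENaC sham female replicate 4 or βENaC sham male replicate 5, and under quantile and cyclic loess normalization. At 5 days it differed by 0.05 ± 0.022 (adjusted p = 0.18). Psme1, a subunit of the interferon-inducible activator PA28αβ, differed by -0.09 ± 0.042 (adjusted p = 0.18) and -0.06 ± 0.042 (adjusted p = 0.52). Its lowest, median and highest values at 1 day were 9.31, 9.78 and 9.97 in sham and 9.42, 9.68 and 9.88 in smoke mice. Psme2, its partner, was a dim row (sham median 3.93 and smoke median 4.07 at 1 day, 4.20 and 4.04 at 5 days). Its differences of 0.06 ± 0.081 and -0.11 ± 0.088 did not pass the test.

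Of the 5 assembly factors of the core, 4 had a negative coefficient at both durations, Psmg3 being the exception, and 2 fell at 1 day. Psmg2, which with Psmg1 forms a chaperone of the alpha ring, fell by 0.16 on the log2 scale at 1 day, with an SE of 0.044 (adjusted p = 0.019). Its lowest, median and highest values were 7.25, 7.55 and 7.81 in sham and 7.04, 7.39 and 7.73 in smoke mice, and 1 of 20 smoke mice was above its sham mean. At 5 days the coefficient was -0.08 ± 0.034 (adjusted p = 0.16). Psmg4, the partner of Psmg3 in another assembly chaperone, fell by 0.15 at 1 day, with an SE of 0.045 (adjusted p = 0.022), on a row close to the array median. Its values were 4.27, 4.46 and 4.83 in sham and 3.90, 4.35 and 4.60 in smoke mice, and at 5 days its coefficient was -0.01 ± 0.043. Pomp, the maturation factor of the beta rings, differed by -0.06 ± 0.034 and -0.02 ± 0.037 and did not pass the test. Sham values at 1 day were 9.16, 9.39 and 9.53 (lowest, median, highest) and smoke values 9.16, 9.31 and 9.53, with the same ends.

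**Figure D2:**
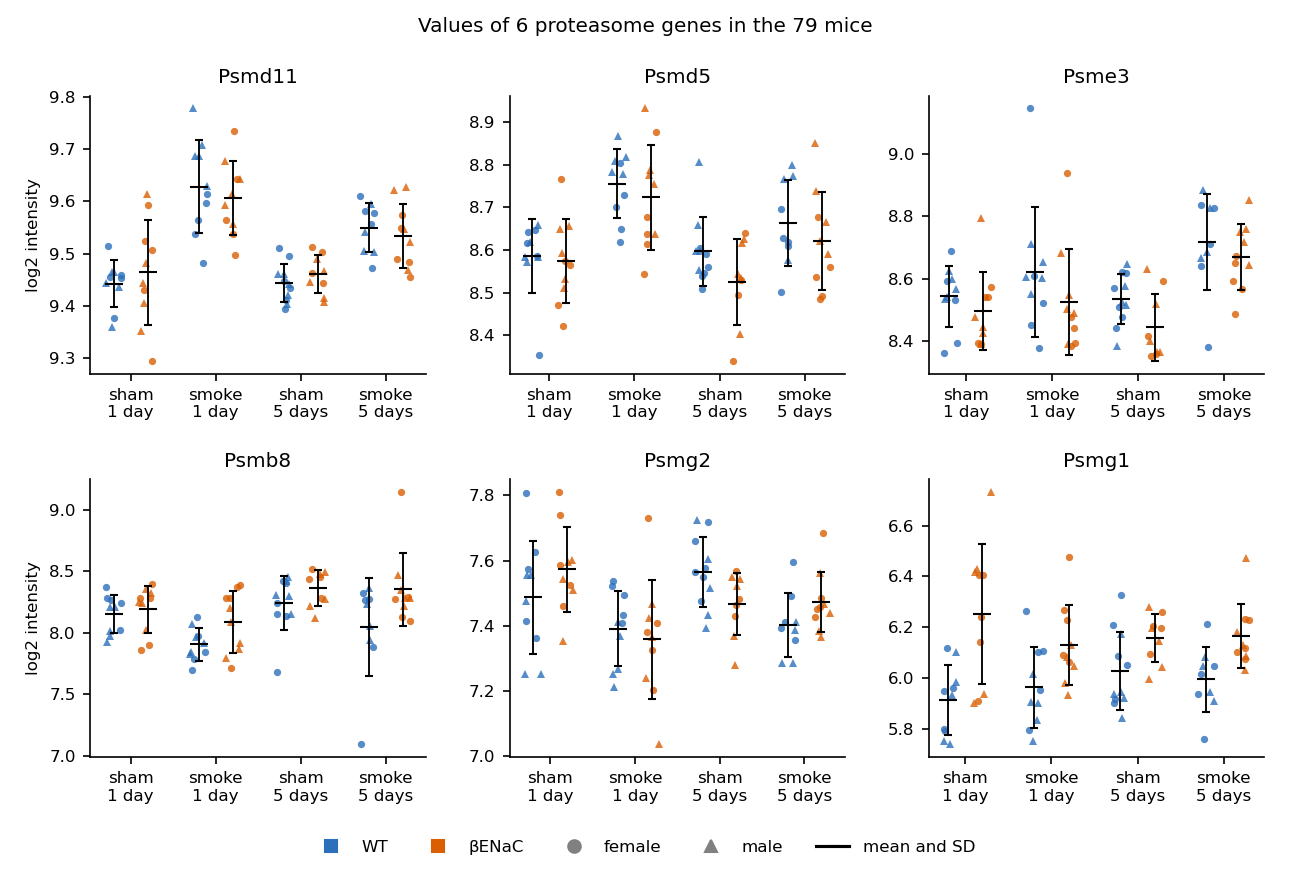
Log2 intensity (y axis) of Psmd11, Psmd5, Psme3, Psmb8, Psmg2 and Psmg1 in each of the 79 mice, by exposure and duration (x axis). Blue is WT, orange is βENaC, circles are females and triangles are males. Horizontal marks and bars give the mean and SD of each genotype. The ranges of sham and smoke mice overlap for every gene, with the smoke medians of Psmd11 at 9.61 and 9.55 against sham medians of 9.45 and 9.45.

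The 20S alpha subunits of the barrel's outer rings did not pass the test. Psma2 differed by -0.06 ± 0.029 at 1 day (adjusted p = 0.20) and -0.03 ± 0.029 at 5 days, and 3 of 20 smoke mice at 1 day were above their sham mean. Its lowest, median and highest values at 1 day were 9.37, 9.64 and 9.84 in sham and 9.50, 9.58 and 9.65 in smoke mice. Psma8, the testis form of an alpha subunit, was near the bottom of the intensity range with medians of 3.17 in sham and 3.04 in smoke mice at 1 day and 3.21 and 3.10 at 5 days. Its differences of -0.11 ± 0.049 and -0.09 ± 0.052 did not pass the test. Psmb1, a beta subunit without a proteolytic site, was the member with smoke minus sham below 0 in all 8 combinations of genotype, sex and duration, between -0.12 and -0.01, and its coefficients of -0.05 ± 0.036 and -0.04 ± 0.034 did not pass either.

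The immunoproteasome subunits were lower in smoke without passing the test. Psmb8 differed by -0.17 ± 0.058 at 1 day (adjusted p = 0.054). Its lowest, median and highest values were 7.86, 8.24 and 8.395 in sham and 7.70, 7.94 and 8.39 in smoke mice, and 5 of 20 smoke mice were above their sham mean. It passed the test at 1 day under 6 of 10 alternatives (adjusted p of 0.017 under quantile normalization, 0.021 under cyclic loess, 0.037 under median centering, 0.041 with the dimmest rows left out, 0.043 with array weights and 0.047 with a trended and robust prior), and the value ranged from 0.019 to 0.086 with 1 mouse left out at a time. At 5 days the coefficient was -0.10 ± 0.087 (adjusted p = 0.61). Psmb10 differed by -0.10 ± 0.057 and -0.13 ± 0.072, with adjusted p of 0.33 and 0.35. The 1-day values of Psmb10 were 7.83, 8.23 and 8.53 in sham and 7.79, 8.15 and 8.38 in smoke mice.

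At 5 days both genes were spread most widely in smoke mice. Psmb8 ran from 7.10 to 9.14 in smoke mice, with a median of 8.27, and from 7.69 to 8.52 in sham mice, with a median of 8.30. Psmb10 ran from 7.39 to 8.98 against 8.08 to 8.63. The lowest Psmb8 was in WT smoke female replicate 2 and the highest in βENaC smoke female replicate 5. Without the first the coefficient of Psmb8 was -0.04 and without the second it was -0.15, and neither passed the test.

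Some genes of leukocytes and of class I antigen presentation were also lower in smoke, and their part in the values of the immunoproteasome subunits was not tested. Among all rows 4.43% were lower in smoke at 1 day and 3.37% at 5 days, and 7.35% and 6.48% of the brighter rows. Of 20 leukocyte marker genes found, 7 were lower in smoke at 1 day and 5 at 5 days and 0 were higher, with median coefficients of -0.28 and -0.25. Their mean level per mouse ranged from 7.32 to 8.36 in sham and from 7.27 to 8.05 in smoke mice at 1 day, and from 7.49 to 8.31 and 7.18 to 8.12 at 5 days. The lists differed. At 1 day the sham and smoke means were 6.45 and 6.41 for T and NK cells, 7.92 and 7.40 for neutrophils, and 8.29 and 8.01 for B cells. They were 8.17 and 7.95 for monocytes and macrophages and 8.63 and 8.38 for leukocytes in general. Ptprc, the pan-leukocyte marker CD45, fell by 0.33 at 1 day and by 0.28 at 5 days. Of 11 genes of class I antigen presentation, 5 fell at 1 day and 4 at 5 days and 0 rose, with medians of -0.09 and -0.11. Among the 1-day genes were Nlrc5, the activator of class I transcription (coefficient -0.38 ± 0.078, adjusted p = 0.0011), Tap1 (-0.19), Calr (-0.12) and Erap1 (-0.09). Of the other marker lists, alveolar epithelium (4 genes), airway epithelium (2 genes) and heart muscle (1 gene) had 0 called at either duration. Endothelium had 1 of 2 genes higher at 1 day and 1 lower at 5 days, and both red cell genes were higher at 5 days.

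Some factors and partners of the proteasome passed the test. Among all rows 5.03% were higher in smoke at 1 day and 3.17% at 5 days. Among the brighter rows these shares were 11.9% and 6.91%. Of 5 genes that control its transcription, Nfe2l2 rose by 0.27 at 1 day and 0.23 at 5 days and Mafk, its small partner, by 0.18 and 0.23, whereas Nfe2l1 differed by 0.06 (adjusted p = 0.097) and 0.02 (adjusted p = 0.83). All 6 NRF2 target genes, chosen as a comparison for the members, rose at 1 day with a median of 1.27, and 5 of 6 at 5 days with a median of 0.60. Nqo1, which reduces quinones, rose by 2.87 at 1 day and 2.64 at 5 days. The members' median coefficient, on the same log2 scale, was 0.04 for the 1-day and 0.01 for the 5-day exposure. Of 9 cofactors, Adrm1, the ubiquitin receptor of the base (0.10 at 1 day), and Ecpas, which binds the particle (0.07 and 0.08), passed the test. Of 12 ubiquitin and shuttle genes, Nploc4, a cofactor of the segregase Vcp, rose by 0.20 and 0.09 and no other passed.

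Smoke minus sham within each genotype and sex is given as a description, with 4 to 6 mice in each group. Over the 8 combinations of genotype, sex and duration, 8 members were positive in all (Psmc4, Psmd2, Psmd4, Psmd7, Psmd11, Psmd5, Psme3 and Psme4), 1 was negative in all, and 34 had both signs. The first 5 of those named are regulatory particle subunits. Signs were not counted over all rows of the array, so whether these numbers are unusual is not known. Psmb8 was most negative in WT females at 1 day (-0.35) and highest in βENaC females at 1 day (0.06).

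**Figure D3:**
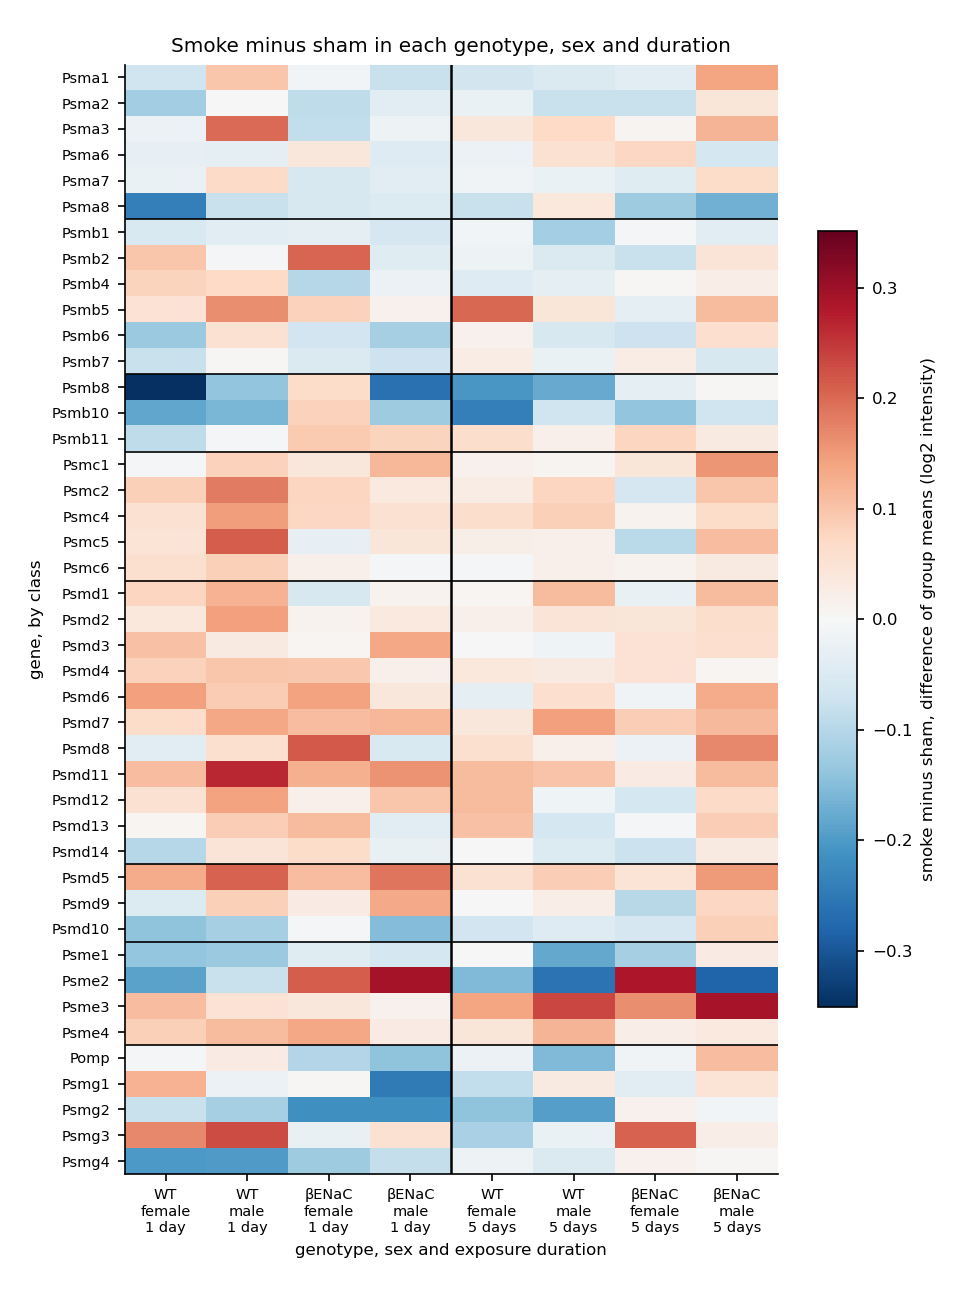
Smoke minus sham difference of group means (log2 intensity, colour) for the 43 proteasome genes (rows, in classes divided by lines) in each genotype, sex and duration (columns). Red is higher and blue lower in smoke. The rows of Psmd11 and Psmd5 are red in all 8 columns, and Psmb1 is blue in all 8.

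Whether smoke acted differently by genotype, sex or duration was tested for each member with limma's interaction terms, and 0 members passed in any of the 5 tests. At an unadjusted p under 0.05 there were 4 members for exposure by genotype and 2 for exposure by sex at 1 day, 1 and 2 at 5 days, and 3 for exposure by duration. The shares of all rows at that unadjusted threshold were 6.98% and 6.33% at 1 day, 3.82% and 3.46% at 5 days, and 12.3% for exposure by duration. An ordinary linear model likewise called 0 members after adjustment. After adjustment 0.00638% of all rows passed for exposure by genotype and 0.00638% for exposure by sex at 1 day, 0% for each at 5 days, and 1.3% for exposure by duration. The intervals of 39 to 42 of the 43 members lay within 1.3-fold in these tests. The widest was that of the dim Psme2 in 4 of the tests and that of Psmg1 for exposure by sex at 1 day.

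A few proteasome genes passed the genotype test, each slightly higher in βENaC mice. At 1 day, 4 members were higher in βENaC than in WT mice (Psmg1, Psmd2, Psmc6 and Psmb4) and 0 were lower, where 3.58% of all rows were higher and 2.29% lower. At 5 days, 3 were higher (Psmg1, Psmd2 and Psmd10) and 0 were lower, where 4.85% and 5.33% of all rows were. No member passed 1.3-fold as well, which 1.55% of rows did at 1 day and 2.53% at 5 days. At an unadjusted p under 0.05 there were 8 members at 1 day and 12 at 5 days, where 17.4% and 22.5% of all rows were. Genotype shares were not counted among rows of like brightness, whose shares for smoke were above those of all rows. These counts are therefore not read as particular to the members. The coefficients of 36 of 43 members were positive at 1 day, with a median of 0.05 beside 0.0024 over all rows, and of 28 at 5 days, with a median of 0.0048 beside -0.01. Under the alternatives 31 to 36 were positive at 1 day and 23 to 33 at 5 days.

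Psmg1, the chaperone that pairs with Psmg2, had the largest genotype coefficient at 1 day. In sham mice at 1 day its lowest, median and highest values were 5.74, 5.94 and 6.12 in WT and 5.90, 6.32 and 6.73 in βENaC mice. In smoke mice at 1 day they were 5.75, 5.93 and 6.27 in WT and 5.93, 6.09 and 6.48 in βENaC mice. The groups overlapped, with the higher end of the βENaC mice beyond the WT mice. The coefficient was 0.25 ± 0.060, a difference of 19.2% (adjusted p = 0.0051). At 5 days it was 0.15 ± 0.041 (adjusted p = 0.012), with values of 5.76, 5.98 and 6.33 in WT and 6.00, 6.14 and 6.47 in βENaC mice.

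Psmd2, the scaffold of the base, was higher by 0.13 ± 0.034 at 1 day (adjusted p = 0.015) and by 0.09 ± 0.027 at 5 days (adjusted p = 0.028). Its lowest, median and highest values at 1 day were 8.94, 9.12 and 9.43 in WT and 9.09, 9.24 and 9.54 in βENaC mice. Psmc6, an ATPase, was higher by 0.11 ± 0.031 at 1 day (adjusted p = 0.024), a call that median centering of the arrays ended, and differed by 0.04 ± 0.023 at 5 days. At 1 day Psmc6 ran from 8.92 to 9.26 with a median of 9.11 in WT and from 9.03 to 9.43 with a median of 9.23 in βENaC mice. Psmb4, a beta subunit without a proteolytic site, was higher by 0.10 ± 0.032 at 1 day (adjusted p = 0.042), a call lost without any 1 of 19 mice (adjusted p up to 0.074) and under 5 of 10 alternatives. The 1-day values of Psmb4 were 7.54, 7.67 and 7.80 in WT and 7.57, 7.75 and 8.01 in βENaC mice, and at 5 days it differed by -0.01 ± 0.035. Psmd10 (gankyrin, a base chaperone) was higher by 0.13 ± 0.041 at 5 days (adjusted p = 0.031) and differed by 0.14 ± 0.050 at 1 day (adjusted p = 0.12). Its 5-day values were 7.01, 7.20 and 7.44 in WT and 7.16, 7.34 and 7.63 in βENaC mice. The call was lost (adjusted p up to 0.058) without βENaC smoke female replicate 3, βENaC sham female replicate 3 or βENaC sham male replicate 3, and under 2 alternatives.

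The immunoproteasome subunits did not pass the genotype test. Psmb8 differed by 0.11 ± 0.058 at 1 day (adjusted p = 0.32) and 0.21 ± 0.087 at 5 days (adjusted p = 0.14), with 5-day values of 7.10, 8.25 and 8.45 in WT and 8.10, 8.28 and 9.14 in βENaC mice. The medians were close, and the ends of 7.10 and 9.14 were those of WT smoke female replicate 2 and βENaC smoke female replicate 5. Psmb10 differed by 0.01 ± 0.057 and 0.15 ± 0.072 (adjusted p of 0.98 and 0.23). Its interval at 5 days stayed within 1.3-fold and that of Psmb8, with an upper bound of 0.38, was the one that did not. Beside them, 4 of the 11 class I presentation genes were higher in βENaC mice at 5 days (Tap2, H2-K1, Tapbp and Calr), and all 11 had positive coefficients. The mean level of the 11 per mouse had lowest, median and highest values of 8.66, 9.33 and 9.48 in WT mice at 5 days. In βENaC mice they were 9.22, 9.39 and 9.97, so the medians were closer than the ends. Of 20 leukocyte markers, 4 were higher (Laptm5, Itgam, Cd68 and Marco) and 0 were lower. Over the 20 leukocyte markers at 5 days, 10 coefficients were positive and 10 negative, with a median of 0.02, and those of all 4 B cell and all 4 T and NK cell markers were negative without passing the test. At 1 day 1 of 11 class I genes (Calr) and 2 of 20 leukocyte markers (Cd68 and Marco) were higher and 0 of the latter lower, and 13 of the 20 had negative coefficients, with a median of -0.08. Their part in the result was not tested.

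**Figure D4:**
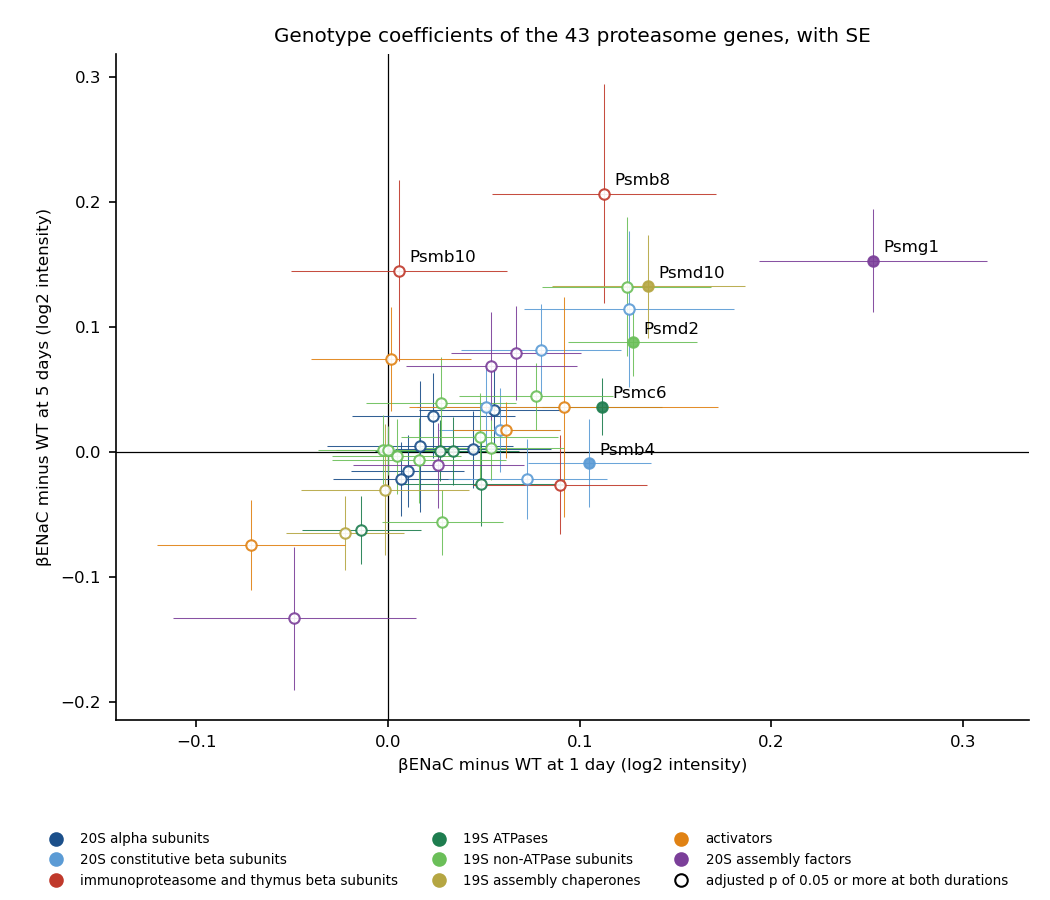
Coefficient of βENaC minus WT (log2 intensity) at 1 day (x axis) and 5 days (y axis) for the 43 proteasome genes, coloured by class, with SE as bars. Filled points passed an adjusted p of 0.05 at 1 or both durations. Psmg1 lies farthest right at 0.25, and Psmd2 is the other gene that passed at both.

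Few members differed between the sexes. At 1 day Psmd12, a lid subunit, and Psmd9, a base chaperone, were higher in males, by 0.12 ± 0.032 (adjusted p = 0.0099) and by 0.16 ± 0.044 (adjusted p = 0.012), and 0 members were lower in males, where 7.82% of all rows were higher and 2.07% lower in males. The values of Psmd12 were 8.75, 8.9997 and 9.28 in females and 8.999, 9.14 and 9.29 in males. Those of Psmd9 were 6.42, 6.64 and 6.89 in females and 6.54, 6.797 and 7.07 in males. The split of higher and lower calls turned with the scaling of the arrays: quantile normalization gave 0 higher and 5 lower in males, cyclic loess 1 higher and 5 lower, and median centering 2 higher and 3 lower. Psma1, Psmb2 and Psmg2 were lower calls under all 3 of these. At 5 days 0 members passed in either direction, where 0.472% of all rows were higher and 0.144% lower in males. At an unadjusted p under 0.05 there were 10 members, beside 11.3% of all rows. The 1.3-fold limit was passed by 0 members, and by 0.845% and 0.198% of all rows at 1 and 5 days.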

How the data were processed

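RNA of the right lung of 79 mice was hybridised to Affymetrix mouse gene arrays on a single plate, 1 array per mouse. The authors deposited log2 intensities made by RMA (the submitters' notes name Affymetrix Expression Console 1.4 and Partek 6.6), with correction of background and of GC and sequence effects of the probes, then quantile normalization and median polish, and they removed 1 array as mislabelled. The values were used as deposited. Quantile normalization makes array distributions alike and hides a shift shared by most genes. The genome build of the array annotation is not given in the sources used here. Of the 31350 rows, 21837 were given a symbol, from the gene names that the study's tables pair with the rows or from RefSeq transcripts, and 9513 were not. Arrays carry no counts, so their number limits the precision.

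Groups came from titles and genotype entries. Each duration was fitted in R 4.3.3 with limma 3.58.1 (lmFit, eBayes) with exposure, genotype and sex as additive terms, and p-values were adjusted by Benjamini-Hochberg over all rows at 0.05. A limit of 1.3-fold was applied separately. Interaction terms were tested with limma in the same way. The script was tested on simulated data. Nothing says that replicate numbers mark pairs of mice, and they were used as a block in 1 alternative. Other alternatives were 3 scalings, a filter on dim rows, array weights, another prior, an ordinary linear model, 1 fit over all mice, leaving out the least typical array of each duration and leaving out each mouse.

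Every member could be named. Group values were given for the proteolytic beta subunits, Psme1, Psme2, Pomp and, in each class, the 2 members with the largest absolute mean smoke coefficient, and for members that passed a test. The members, the comparison lists and the rule were chosen with earlier results of these data known. The comparison lists were cofactors, ubiquitin and shuttle genes, transcription of proteasome genes, NRF2 targets, class I presentation and markers of leukocytes, epithelium, endothelium, heart muscle and red cells. The values of 1 gene of these lists are not reported here. Input was read by data.table (1.17.8) and pandas (2.3.3), and Python 3.11.15 with matplotlib 3.10.9 drew the plots.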

Additional observations from a re-analysis of the deposited data

Results flagged for a closer look

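The 16 groups of 4 to 6 mice were examined for each of the 6 genes plotted mouse by mouse. In 8 of these 96 checks a mouse stood apart from its group, where chance gives about 1 in 20 for a single check. The checks share their mice and are not independent. In BENaC smoke females at 1 day, replicate 5 had the lowest Psmb8 (7.71, the others 8.28 to 8.39) and the highest Psme3 (8.94, the others 8.38 to 8.48). In BENaC smoke females at 5 days, replicate 5 had the highest Psmb8 (9.14, the others 8.10 to 8.29) and replicate 3 the highest Psmg2 (7.68, the others 7.43 to 7.48). In BENaC sham males at 1 day, replicate 1 had the highest Psme3 (8.79, the others 8.39 to 8.48), and its array was the one least like its own group at 1 day. In WT sham mice at 1 day, Psmd11 was low in male replicate 3 (9.36, the others 9.44 to 9.46) and Psmd5 in female replicate 1 (8.35, the others 8.59 to 8.65). In WT smoke males at 5 days, Psmd5 was low in replicate 2 (8.58, the others 8.77 to 8.80). The calls of Psmd11, Psmd5, Psme3 and Psmg2 held without any 1 mouse.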

How the results depend on the processing

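The calls of Psmd11, Psmd5, Psmg2 and Psmg4 at 1 day, of Psmd11 and Psme3 at 5 days, and of Psmg1 and Psmd2 in the genotype comparisons held under all 10 alternatives and without any 1 mouse, and 0 of the 18 calls changed direction. For the number of members called, median centering gave 2 in place of 4 for genotype at 1 day, 5 in place of 2 for sex at 1 day, and 1 in place of 0 for sex at 5 days. For sex at 1 day, quantile normalization gave 5, cyclic loess 6 and 1 fit over all mice 7. The cause was not tested. Quantile and cyclic loess normalization changed the smoke calls at 1 day from 4 higher and 2 lower to 2 higher and 3 lower, with Psmb8 as the added lower call. Leaving out each mouse gave 4 to 8 members for exposure at 1 day and 2 to 4 at 5 days, 3 to 5 and 2 to 4 for genotype, and 2 to 5 for sex at 1 day. The interaction tests gave 0 throughout.

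With the replicate number as a block, which pairs mice by number, the counts were 6 members for exposure at 1 day, 3 at 5 days, 3 for genotype at 1 day (without Psmb4) and 3 at 5 days, and 2 and 0 for sex, and no call other than that of Psmb4 changed. Mice with the same number did not deviate together (mean correlation 0.0121 over 266 pairs, from -0.276 to 0.538, beside -0.0027 over 1098 pairs with different numbers). Choosing the dimmest row of a gene gives the same values, since no member had more than 1 row.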

Other observations

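A mean was taken over the 12 alpha and constitutive beta subunits of the core, without Psmb8, Psmb10 and Psmb11. With the mean of each of the 16 groups removed, it was most like Nme1, a nucleoside diphosphate kinase (Pearson r = 0.848, Spearman rho = 0.780 over 79 mice). Next were Timm23, the pore of the mitochondrial inner membrane import machinery (0.836 and 0.810), and Fkbp2, a prolyl isomerase of the endoplasmic reticulum (0.824 and 0.803). These values describe all 79 arrays, which share their normalization and RNA preparation, and were chosen as the 3 highest of the array. Among the members themselves, Psmb5 (0.829), Psma7 (0.784) and Psmb6 (0.775) followed that mean most closely, although they are part of it, and Psmd9 (-0.0046) and the dim Psmb11 (-0.156) did not.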
